A study of Arabidopsis thaliana with 29 samples.

Results

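The genes described here are 7 regulators that carry light signals forward in Arabidopsis seedlings: HY5 (AT5G11260), HYH (AT3G17609), LAF1 (AT4G25560), GBF1 (AT4G36730), FHY1 (AT2G37678), FHY3 (AT3G22170) and FAR1 (AT4G15090). They were taken by locus identifier, with earlier results of these data known, and are 7 of the 59999 loci in the count table. All 7 passed the filter on low counts. PolyA RNA of 7-day-old seedlings was sequenced in 3 groups, all grown on Murashige and Skoog medium with a sucrose label of 0.01, which has no unit, in white light of 100 µmol m-2 s-1, 16 h light and 8 h dark. The fusca group is the 2x35S::GFP-HY5/hy5 line where seedlings showed the fusca phenotype, and it has 3 libraries. The GFP-HY5 group is the same 2x35S::GFP-HY5/hy5 line with no such phenotype recorded. Its 3 columns hold the same count at every locus, so they count as 1 library here. WT seedlings, also with 3 libraries, carry neither the transgene nor the hy5 mutation in the labels. In the transgenic line HY5 is driven by the cauliflower mosaic virus 35S promoter, which is active in most tissues, and whether all seedlings descend from 1 transformation event is not given in the sources used here. Nothing says that the replicates came from separate cultures, so p-values measure the spread between these samples, which may be technical.

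HY5 and HYH are paralogous bZIP transcription factors that bind ACGT-containing promoter elements and promote photomorphogenesis, the short-stemmed, green growth of seedlings in light. In darkness the COP1-SPA ubiquitin ligase, helped by DET1, marks HY5, HYH and the MYB factor LAF1 for degradation, so these proteins are largely controlled after transcription. GBF1 is another bZIP factor that binds the G-box and has been described with both promoting and repressing roles. FHY3 and FAR1 are transcription factors derived from a transposase. They activate FHY1 and its homologue FHL, whose proteins carry the far-red photoreceptor phytochrome A into the nucleus, and HY5 and HYH act at some of the same promoters.

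Column totals over loci lay between 11860094 and 12545563 counts, and levels are given as CPM, counts scaled to library size after TMM scaling for library composition. TMM factors were 1.11 to 1.26 in fusca, 0.911 in GFP-HY5 and 0.839 to 0.888 in WT, so the scaling bears on every fold change below. Fusca replicate 2 stood apart from its group. It differed at least 2-fold from the other fusca libraries at 1987 loci, against 589 and 522 loci for fusca replicates 1 and 3. It also held 216 CPM summed over 10 seed storage and oil body genes, against 2.29 and 2.08 CPM in fusca replicates 1 and 3, 0.883 in GFP-HY5 and 1.72 to 4.96 in WT. Of 8 shoot markers, 7 were tested, 5 of them with a positive difference in fusca, and FAMA (AT3G24140), a guard cell regulator, alone passed, lower by a log2 difference of -2.44 (edgeR adjusted p = 8.4e-06). The trichome regulator GL1, which missed the count filter and was singled out after its values were seen, had 0, 1 and 4 counts in the fusca libraries, 19 in GFP-HY5 and 26, 14 and 9 in the WT libraries. The summed shoot markers were at 162 to 216 CPM in fusca, 213 in GFP-HY5 and 195 to 217 in WT. The summed level of 7 root markers was 6221 to 11678 CPM in fusca, 3023 in GFP-HY5 and 3590.2 to 3659 in WT, mostly from PYK10, a beta-glucosidase of roots and hypocotyls. The list did not move one way: PYK10, TIP2;3 and SHR were called higher in fusca, the root hair genes COBL9, EXPA7 and EXPA18 were called lower by log2 differences of -0.82, -1.36 and -1.69, and the list median was -0.21. Calls made up 85.7% of the root list and 14.3% of the shoot markers tested, beside 35.1% of all loci tested. The part that the differences above play in the results on the 7 genes was not tested.

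In fusca seedlings HY5 rose, GBF1 and FAR1 fell, and the other 4 genes did not pass the test. HY5 and GBF1 passed in all 15 alternative runs, but FAR1 in 9 of the 15. HY5 RNA was 10.5-fold higher than in WT, GBF1 RNA was at 0.562 of its WT level and FAR1 RNA at 0.701. The 3 called genes are 42.9% of the 7, beside 35.1% of all 21820 loci tested (7651 loci, at a Benjamini-Hochberg adjusted p under 0.05 in edgeR's quasi-likelihood test). HY5, which the transgene carries, is among the 3, so this share is not read as a trait of the set. The shares called over all loci were 16.7% higher in fusca and 18.4% lower. The median log2 fold change of the 7 genes was -0.01, beside 0.05 over all loci. With library size as the only scale 79.8% of the calls over all loci were higher in fusca, and with upper-quartile factors 61.1%, against 47.6% with TMM. In RNA from seedlings, fewer cells of a type and less RNA per cell cannot be told apart.

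**Figure D1:**
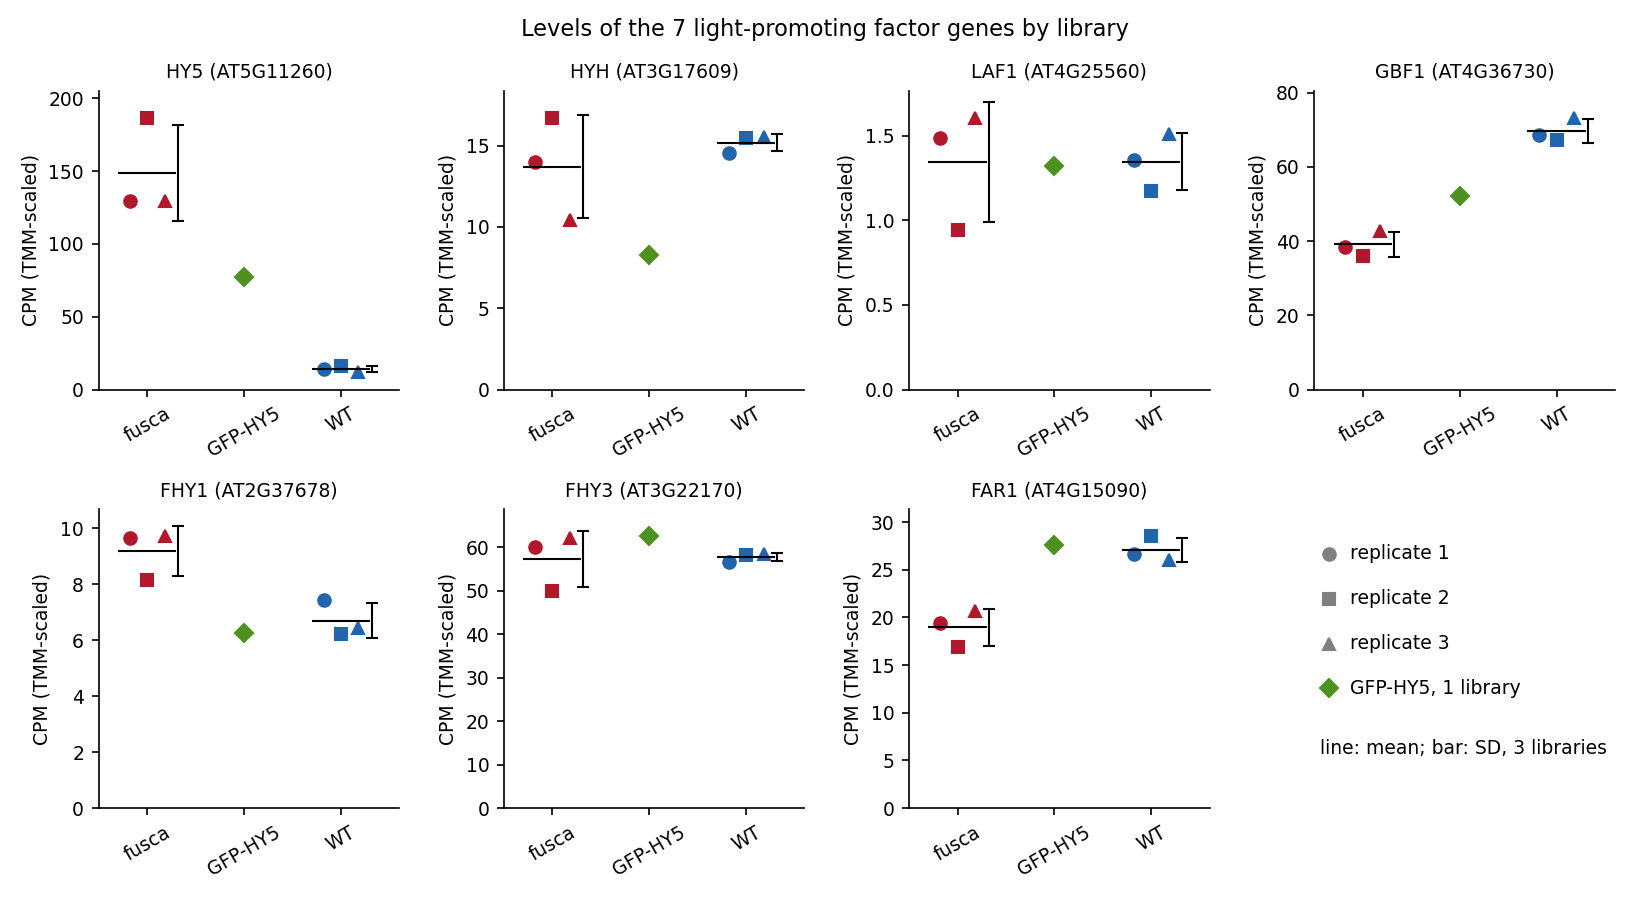
CPM of the 7 genes (y axis, from 0, TMM-scaled) in each library of fusca, GFP-HY5 and WT (x axis); points are libraries, horizontal lines are means and bars are SD over 3 libraries. HY5 stands at 129 to 187 CPM in fusca, above 77.4 in GFP-HY5 and 12.1 to 16.2 in WT, and GBF1 runs the other way, at 36.1 to 42.9, 52.1 and 67.2 to 73.3.

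HY5 was at 129, 187 and 130 CPM in fusca replicates 1, 2 and 3, at 77.4 CPM in the GFP-HY5 library, and at 14.1, 16.2 and 12.1 CPM in WT replicates 1, 2 and 3. Every library of the transgenic line lay above every WT library, and every fusca library lay above the GFP-HY5 library. On the log2 scale the difference of fusca from WT was 3.39 ± 0.21 (SE; edgeR adjusted p = 2.7e-06; 9.5e-53 to 6.3e-05 over 15 alternatives). It ranked 414th among the increases of the 21820 loci tested. The counts at this locus do not tell the transgene from the hy5 allele. Without fusca replicate 2, the highest library, the log2 fold change was 3.19. In the GFP-HY5 library HY5 was 5.47-fold above the WT mean, and in fusca it was 1.89-fold above GFP-HY5, both without a replicate check in the GFP-HY5 arm.

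HYH, the homologue that can dimerise with HY5, did not follow it. HYH was at 14.0, 16.7 and 10.4 CPM in fusca replicates 1, 2 and 3, at 8.30 CPM in GFP-HY5, and at 14.6, 15.4 and 15.5 CPM in WT replicates 1, 2 and 3. The fusca libraries lay on both sides of the WT libraries, and the GFP-HY5 library lay below all 6. The log2 difference of fusca from WT was -0.15 with a 95% interval of -0.57 to 0.28 (edgeR adjusted p = 0.593), and its sign turned with library size only, at 0.29. The GFP-HY5 library stood at 0.552 of the WT mean, a log2 difference of -0.86 that has no replicate check. At least a 2-fold difference from WT was found in the GFP-HY5 library for 1 of the 7 genes, HY5, beside 3.07% of all loci, 2.05% higher and 1.02% lower. It lay outside the range of the WT libraries for 4 of the 7 genes, HY5, HYH, GBF1 and FHY3, beside 58.3% of all loci. It lay outside the range of the fusca libraries for 6 of the 7, all but LAF1, beside 64.6% of all loci. Between fusca and GFP-HY5, 0 of the 7 genes differed at least 2-fold, beside 19.3% of all loci; with upper-quartile factors, or without fusca replicate 1 or 3, HY5 did, and with library size only HY5 and HYH did.

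The share of the 2 paralogs within a library does not depend on the scaling between libraries. The HY5 to HYH count ratio was 9.25, 11.1 and 12.4 in fusca replicates 1, 2 and 3, 9.29 in the GFP-HY5 library, and 0.969, 1.05 and 0.780 in WT replicates 1, 2 and 3. HY5 and HYH counts were thus near equal in WT, and the ratio was 11.7-fold higher in fusca. The GFP-HY5 library lay within the range of the fusca libraries although its HY5 level was lower, because its HYH level was lower too. The exact permutation test of 3 fusca against 3 WT libraries gave p = 0.1 (two-sided), the smallest value this design allows, and 0.15 after adjustment over the 3 ratios tested.

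**Figure D2:**
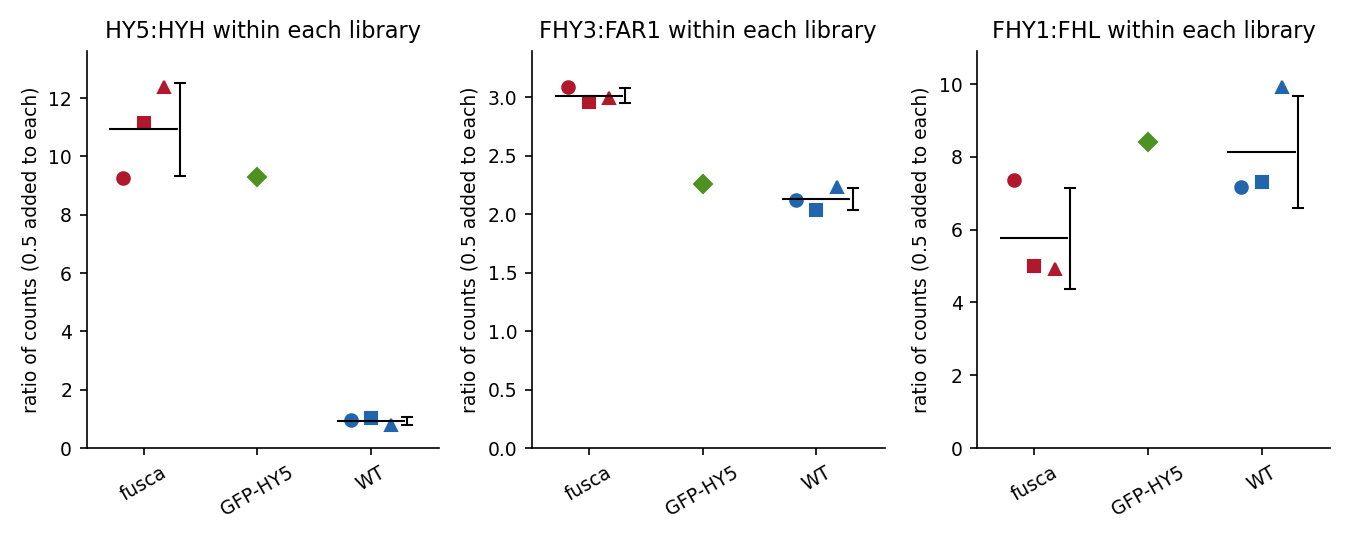
Ratios of counts within each library (y axis, from 0, with 0.5 added to each count) for HY5 to HYH, FHY3 to FAR1 and FHY1 to FHL in fusca, GFP-HY5 and WT (x axis); points are libraries, lines means and bars SD over 3 libraries. The fusca and WT libraries are separate for HY5 to HYH (9.25 to 12.4 against 0.780 to 1.05) and for FHY3 to FAR1 (2.96 to 3.09 against 2.04 to 2.23), and overlap for FHY1 to FHL.

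GBF1, the G-box binding factor, fell in fusca and stood between fusca and WT in the GFP-HY5 library. It was at 38.4, 36.1 and 42.9 CPM in fusca replicates 1, 2 and 3, at 52.1 CPM in GFP-HY5, and at 68.6, 67.2 and 73.3 CPM in WT replicates 1, 2 and 3. The fusca and WT libraries did not overlap, which held for 49.8% of all loci in either direction. The log2 difference of fusca from WT was -0.83 ± 0.13 (SE; edgeR adjusted p = 9.5e-04), and it stayed past the threshold in all 15 alternatives, where it was between -0.90 and -0.38. The smallest change came with library size only (adjusted p = 0.0498; 5.8e-06 to 0.0498 over the alternatives). The GFP-HY5 library was 0.42 below WT on the log2 scale. The RefSeq span of GBF1 overlaps that of the long noncoding RNA AT4G09375, which has no row in the count table, by 461 bases, and that of AT4G36720 by 256 bases. AT4G36720 held 135 to 225 counts per library and a log2 difference of -0.02 between fusca and WT (edgeR adjusted p = 0.949).

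LAF1, a MYB factor of phytochrome A signalling, was the least abundant of the 7. Its counts were 22, 13 and 24 in the fusca libraries, 15 in GFP-HY5 and 15, 13 and 15 in the WT libraries. In CPM these are 1.48, 0.945 and 1.61 in fusca, 1.32 in GFP-HY5 and 1.36, 1.17 and 1.51 in WT. The groups overlapped, and the log2 difference of fusca from WT was 0.01 with a 95% interval of -0.72 to 0.73 (edgeR adjusted p = 0.989). LAF1 overlaps AT4G25570 by 82 bases in RefSeq, and that locus held 1305 to 2699 counts. Whether its reads entered the small LAF1 counts was not tested, so these counts stay uncertain.

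FHY1, the carrier of phytochrome A into the nucleus, was somewhat more abundant in fusca but missed the threshold. It was at 9.65, 8.14 and 9.71 CPM in fusca replicates 1, 2 and 3, at 6.27 CPM in GFP-HY5, and at 7.42, 6.23 and 6.44 CPM in WT replicates 1, 2 and 3. The lowest fusca library was above the highest WT library, and 49.8% of all loci separated these groups in either direction, while the GFP-HY5 library lay within the WT range. The log2 difference was 0.45 with a 95% interval of 0.05 to 0.85 before adjustment (edgeR adjusted p = 0.078). FHY1 passed without fusca replicate 2, at 0.53 (edgeR adjusted p = 0.017), with upper-quartile factors, at 0.60 (adjusted p = 0.025), and with library size only, at 0.90 (adjusted p = 0.0040; range over its 15 alternatives 0.0040 to 0.214). Its homologue FHL (AT5G02200), with 6 to 29 counts per library, stood at 1.28, 1.60 and 1.94 CPM in fusca, 0.706 in GFP-HY5 and 0.996, 0.812 and 0.604 in WT, a log2 difference of 0.98 just outside the threshold (edgeR adjusted p = 0.051). The FHY1 to FHL ratio was 7.36, 5.00 and 4.93 in the fusca libraries, 8.41 in GFP-HY5 and 7.17, 7.32 and 9.92 in the WT libraries, and did not separate the groups (exact permutation test, two-sided p = 0.3).

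Of FHY3 and FAR1, which activate FHY1, FAR1 was called lower in fusca and FHY3 did not pass the test. These calls alone do not show a difference between the 2 genes, whose ratio is given below. FHY3 was at 59.9, 49.99 and 62.1 CPM in fusca replicates 1, 2 and 3, at 62.5 CPM in GFP-HY5, and at 56.6, 58.2 and 58.3 CPM in WT replicates 1, 2 and 3. The fusca libraries spanned the WT libraries, with replicate 2 below them, and the log2 difference was -0.01 with a 95% interval of -0.31 to 0.30 (edgeR adjusted p = 0.967). Its sign was not stable, and with library size only FHY3 was called higher, at 0.45 (edgeR adjusted p = 0.034; 0.034 to 0.994 over its alternatives).

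FAR1 was at 19.4, 16.9 and 20.7 CPM in fusca replicates 1, 2 and 3, at 27.6 CPM in GFP-HY5, and at 26.6, 28.5 and 26.1 CPM in WT replicates 1, 2 and 3. Every fusca library lay below every WT library, where 49.8% of all loci separated these groups in either direction. The GFP-HY5 library lay within the WT range. The log2 difference was -0.51 ± 0.14 (SE; edgeR adjusted p = 0.018). The call was lost with upper-quartile factors, at -0.36, with library size only, at -0.06, with a replicate block, at -0.48, and without WT replicate 1, 2 or 3, at -0.50, -0.45 and -0.50. The adjusted p over its 15 alternatives ran from 0.0062 to 0.755.

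The FHY3 to FAR1 count ratio, which does not depend on the scaling, was 3.09, 2.96 and 3.00 in fusca replicates 1, 2 and 3, 2.26 in the GFP-HY5 library, and 2.12, 2.04 and 2.23 in WT replicates 1, 2 and 3. The fusca libraries lay close together and above all others, with a ratio 1.42-fold that of WT, and the GFP-HY5 library lay just above the highest WT library. The exact permutation test gave p = 0.1 (two-sided), the smallest possible with 3 against 3, and 0.15 after adjustment. Fusca replicate 2 had the lowest CPM of both genes among the fusca libraries, and its ratio was also the lowest of the 3.

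**Figure D3:**
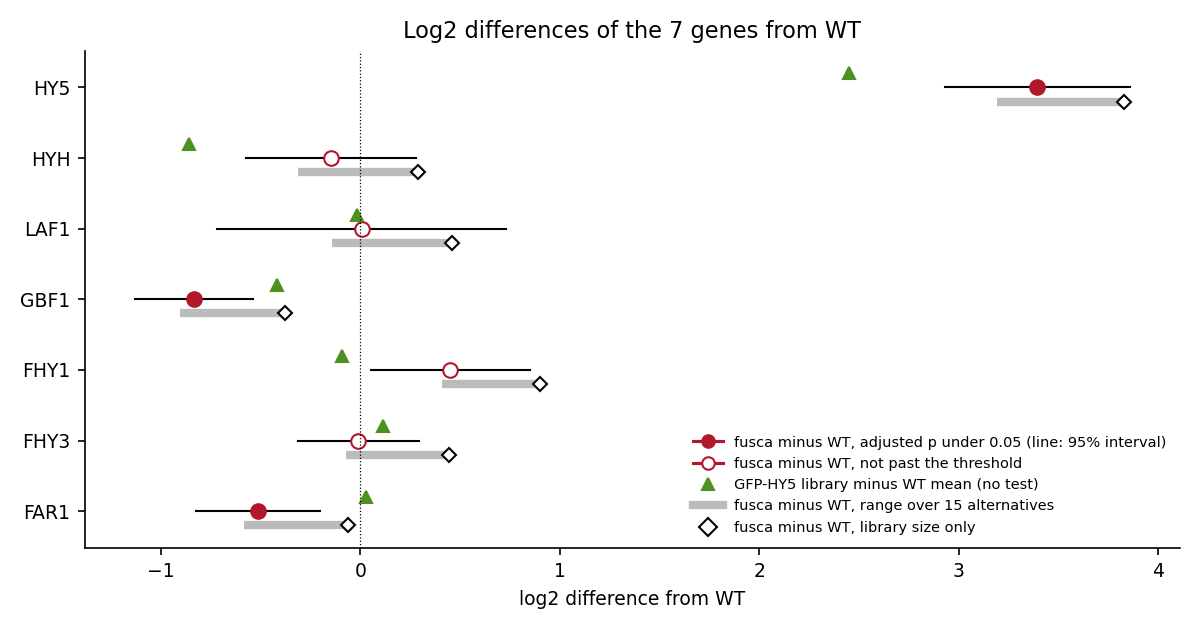
Log2 difference from WT (x axis) of the 7 genes (y axis). Red circles are fusca minus WT from edgeR with their 95% interval, filled where the adjusted p is under 0.05; grey bars are the range over 15 alternatives and open diamonds the value with library size only; green triangles are the GFP-HY5 library minus the WT mean, with no test. HY5 (3.39), GBF1 (-0.83), FHY1 and FAR1 keep their side of 0 in these alternatives, while the grey bars of HYH, LAF1 and FHY3 cross 0.

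The members also differed in order of abundance. Per kilobase of RefSeq gene span, introns included, the fusca means were 85.5 CPM for HY5, 15.8 for HYH, 13.6 for FHY3, 13.6 for GBF1, 6.66 for FHY1, 4.61 for FAR1 and 1.08 for LAF1. In the GFP-HY5 library HY5 was first at 44.5 CPM per kilobase, followed by GBF1 at 18.1, FHY3 at 14.9, HYH at 9.57, FAR1 at 6.72, FHY1 at 4.55 and LAF1 at 1.07. In WT the order was GBF1 at 24.2 CPM per kilobase, HYH at 17.5, FHY3 at 13.7, HY5 at 8.12, FAR1 at 6.58, FHY1 at 4.87 and LAF1 at 1.09. HY5 thus moved to first place in both transgenic groups, against place 4 in WT. Neighbours in the WT order did not overlap between libraries, though HY5 and FAR1 came as close as 6.95 and 6.93 CPM per kilobase. That does not bear on the scaling by gene span, which sets part of the order. In CPM without it, the WT means were 69.7 for GBF1, 57.7 for FHY3, 27.1 for FAR1, 15.2 for HYH and 14.1 for HY5. FHY1 and LAF1 followed at 6.70 and 1.35 CPM. In fusca HYH overlapped FHY3, and FHY3 overlapped GBF1, so these 3 have no clear order.

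Relatives of the 7 genes were compared next, from lists drawn up with earlier results of these data known. Of the 12 FAR1-related sequence (FRS) genes, relatives of FAR1 and FHY3, 10 had a positive log2 difference in fusca and 2 passed the test, both higher: 16.7% of the list, beside 35.1% of all loci. FRS10 (AT5G28530) was at 7.56, 9.23 and 9.31 CPM in fusca, 6.18 in GFP-HY5 and 5.16, 6.41 and 5.84 in WT, 0.58 higher on the log2 scale (edgeR adjusted p = 0.037; 0.0019 to 0.127 over its alternatives). FRS4 (AT1G76320) was at 21.9, 18.7 and 22.2 CPM in fusca, 16.2 in GFP-HY5 and 15.9, 15.3 and 15.8 in WT, 0.41 higher on the log2 scale (edgeR adjusted p = 0.047; 0.0018 to 0.147). The list median was 0.18, beside 0.05 over all loci. Its range ran from -0.41 for FRS12 (AT5G18960) to 0.58 for FRS10. The number of calls was 0 without any 1 of the WT libraries, 4 without fusca replicate 2 and 10 with library size only. In the fit reported here no FRS gene was called lower.

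The closest bZIP relatives of GBF1 in the G group showed no change past the test. GBF2 (AT4G01120), GBF3 (AT2G46270), bZIP16 (AT2G35530) and bZIP68 (AT1G32150) had log2 differences between fusca and WT of 0.12, 0.28, 0.10 and -0.11, with edgeR adjusted p from 0.398 to 0.669. GBF3, a G-box factor, rested on a wide spread, at 13.4, 7.12 and 10.3 CPM in fusca replicates 1, 2 and 3, 6.97 in GFP-HY5 and 7.96, 8.30 and 9.16 in WT, and passed without fusca replicate 2, at 0.49 (edgeR adjusted p = 0.028). With library size only 3 of the 4 passed, where 12774 loci were called in all, against 7651 with TMM. Of the MYB genes nearest to LAF1, MYB19 (AT5G52260) differed by 0.77 and MYB45 (AT3G48920) by 0.84, with edgeR adjusted p = 0.183 and 0.083. MYB45 was at 4.99, 5.6 and 3.15 CPM in fusca, 1.15 in GFP-HY5 and 1.54, 2.71 and 3.42 in WT, so that the GFP-HY5 library was the lowest of the 7.

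Around FHY1, the wider set of 10 far-red and phytochrome A signalling genes had 3 calls in fusca, all higher, or 30% of the list beside 35.1% of all loci (16.7% higher), with a median log2 difference of 0.44. PHYA (AT1G09570), the photoreceptor that FHY1 carries, was at 156, 137 and 144 CPM in fusca, 85.2 in GFP-HY5 and 84.6, 88.7 and 73.6 in WT, 0.82 higher in fusca on the log2 scale (edgeR adjusted p = 0.0014). The GRAS proteins PAT1 (AT5G48150) and SCL21 (AT2G04890), which act positively in phytochrome A signalling, rose by 0.88 and 0.65 on the log2 scale (edgeR adjusted p = 0.0016 and 0.0095). These 3 genes passed in every alternative run. For PHYA and SCL21 the GFP-HY5 library lay within the WT range, while for PAT1 it lay above it. Without fusca replicate 2 the number of calls in the list was 8, and calls over all loci rose from 7651 to 10895.

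Of the 9 genes of the COP1, SPA and DET1 machinery, which removes HY5, HYH and LAF1 proteins, SPA3 (AT3G15354) alone passed the test, lower at 20.5, 13.4 and 20.9 CPM in fusca, 46.1 in GFP-HY5 and 53.1, 58.6 and 65.4 in WT (log2 fold change -1.69, edgeR adjusted p = 1.1e-04); without fusca replicate 2 the count was 3. This call is 11.1% of the list, below the 35.1% of all loci. Another 8 genes encode B-box proteins listed as partners of HY5, not sorted by whether they help or oppose it. Of these, 7 were tested and all 7 had a positive difference, where the median over all loci was 0.05. Fusca and WT libraries did not overlap for 2 of the 7, beside 49.8% of all loci. BBX22 (AT1G78600) alone passed. It was at 50.9, 42.4 and 26.9 CPM in fusca, 21.8 in GFP-HY5 and 20.9, 22.8 and 21.1 in WT (log2 fold change 0.89, edgeR adjusted p = 0.011). That is 14.3% of the B-box genes tested, also below 35.1%. The B-box count was 3 without fusca replicate 2, 4 without fusca replicate 3 and 6 with library size only.

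**Figure D4:**
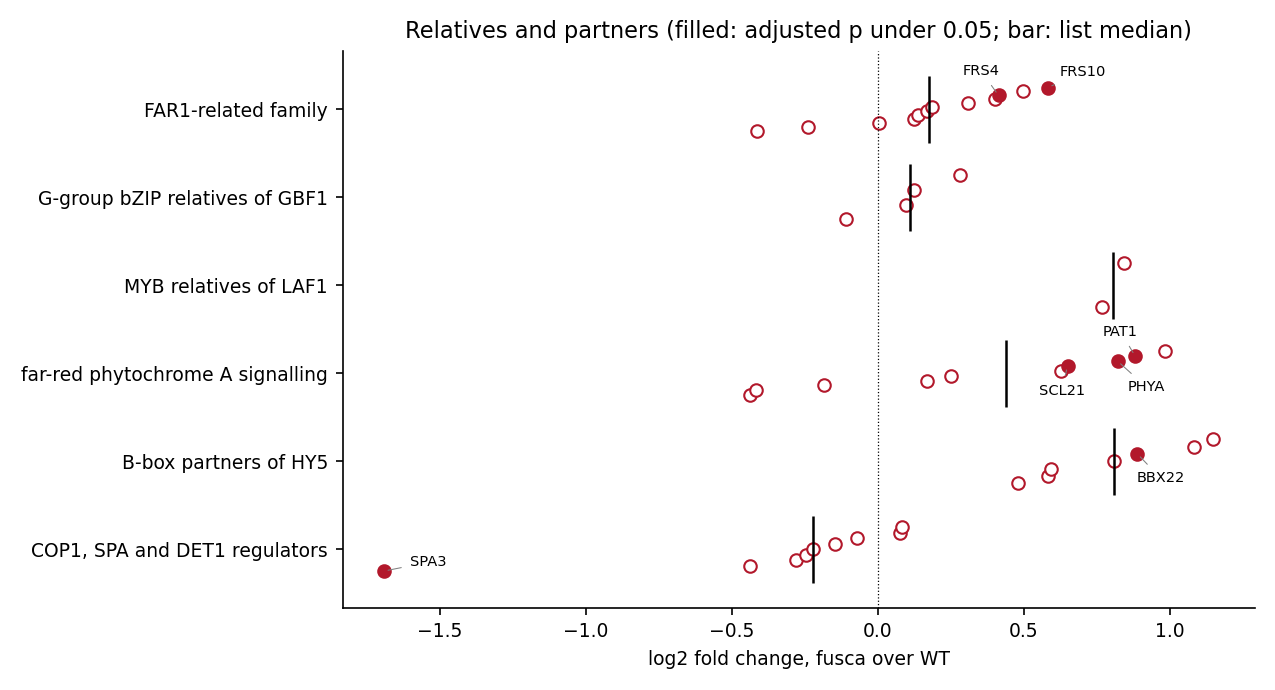
Log2 fold change of fusca over WT (x axis) for tested genes of 6 lists (y axis); each circle is a gene, filled and named where the edgeR adjusted p is under 0.05, and the vertical bar is the list median. Filled circles are few in each list, from 0 to 3, with SPA3 at -1.69 the farthest from 0.

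Genes known as direct targets of HY5 were then examined. The known targets were also listed with earlier results in view. Of 19 genes 13 passed in fusca, 5 higher and 8 lower, or 68.4% beside 35.1% of all loci, with a median log2 difference of -0.14. The largest changes were losses: CAB1 (AT1G29930), a light-harvesting protein, changed by -4.53, RBCS1A (AT1G67090), the Rubisco small subunit, by -4.51, PSY (AT5G17230), phytoene synthase of carotenoid synthesis, by -3.48, and the nitrate transporter gene NRT2.1 (AT1G08090) also by -3.48 (edgeR adjusted p at most 0.0012). PSY was at 31.3, 27.0 and 29.6 CPM in fusca, 270.3 in GFP-HY5 and 315, 315 and 353 in WT. The 5 targets called higher in fusca were ELIP1, ABI5, MYB12, ELIP2 and IAA14, with log2 fold changes of 2.01, 1.85, 1.40, 1.34 and 0.77. NRT2.1 varied in WT, at 11, 51.2 and 25.5 CPM.

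In the GFP-HY5 library 17 of the 19 targets lay below the WT mean and 14 below every WT library, a position that 28.8% of all loci took, with a median log2 difference of -0.46 beside 0.01 over all loci. HYH, which HY5 is known to activate, also lay below every WT library there, while HY5 lay above every WT library. A relation between HY5 and HYH was not tested. Members of the flavonoid pathway, singled out after their values were seen, were among the targets farthest below. CHS (AT5G13930), chalcone synthase, was at 1232, 1291 and 915 CPM in fusca, 484 in GFP-HY5 and 949, 1097 and 1147 in WT. F3H (AT3G51240), flavanone 3-hydroxylase, was at 194, 188 and 136 CPM in fusca, 75.7 in GFP-HY5 and 136, 176 and 160 in WT. For both, the fusca and WT libraries overlapped and the GFP-HY5 library lay below all 6, as for HYH. TT7 (AT5G07990), flavonoid 3'-hydroxylase, was low in both transgenic groups, at 14.0, 19.8 and 15.7 CPM in fusca and 18.9 in GFP-HY5, against 37.8, 50.9 and 49.4 in WT. MYB12 (AT2G47460), an activator of flavonol synthesis, was at 25, 15.6 and 9.31 CPM in fusca, 3.71 in GFP-HY5 and 6.34, 6.05 and 6.54 in WT. These positions rest on 1 GFP-HY5 library and have no replicate check, and fusca and GFP-HY5 are set against the same WT libraries.

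**Figure D5:**
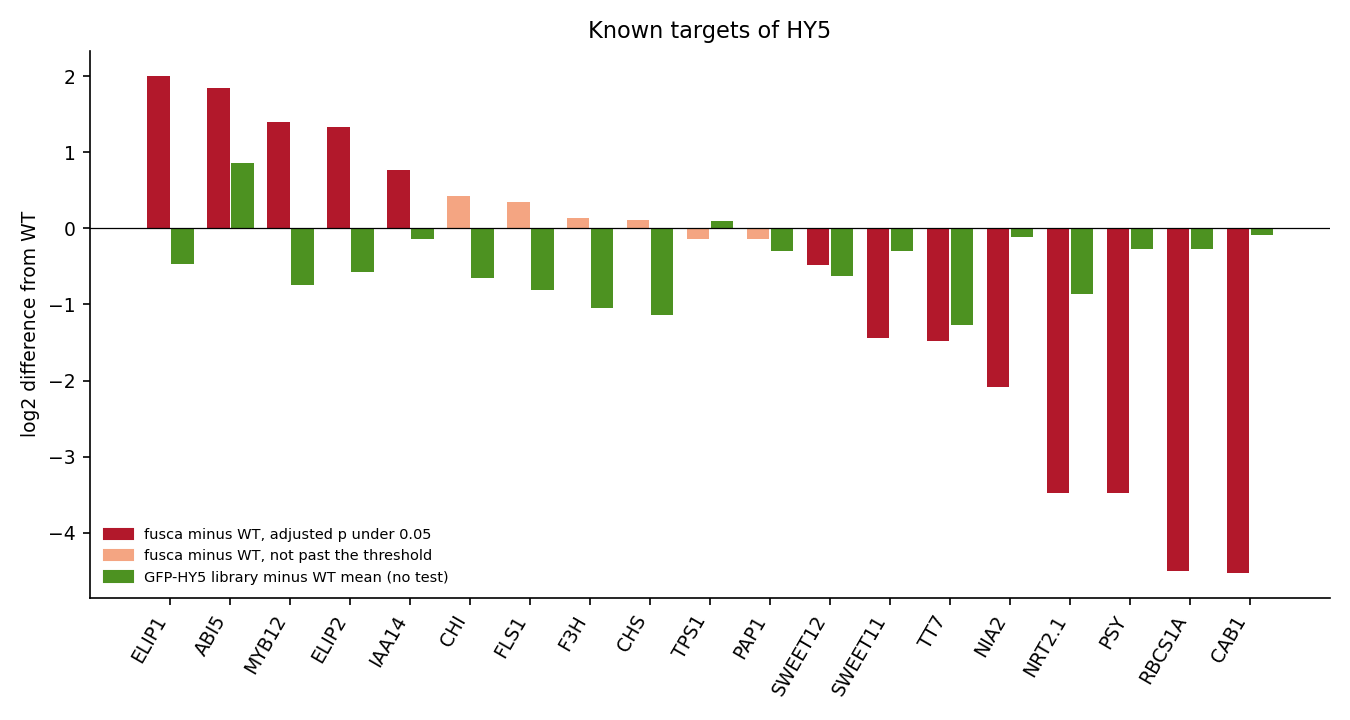
Log2 difference from WT (y axis) of 19 known HY5 targets (x axis, ordered by the fusca value); red bars are fusca minus WT (pale where the edgeR adjusted p is 0.05 or more) and green bars the GFP-HY5 library minus the WT mean, with no test. The green bars are below 0 for 17 of 19 genes, while the red bars run from 2.01 for ELIP1 to -4.53 for CAB1.

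Targets of FHY3 and FAR1 changed in both directions. Of 10 listed genes 6 passed in fusca, 2 higher and 4 lower, or 60% of the list beside 35.1% of all loci, with a median log2 difference of -0.61. The 4 that fell were MIPS1 (AT4G39800), inositol phosphate synthase, by 3.33 on the log2 scale, ISA2 (AT1G03310), a starch debranching isoamylase, by 1.66, ARC5 (AT3G19720), a dynamin-like protein of chloroplast division, by 1.32, and HEMB1 (AT1G69740), of chlorophyll synthesis, by 1.30 (edgeR adjusted p at most 6.4e-05). MIPS1 was at 27.5, 33.4 and 39.4 CPM in fusca, 241 in GFP-HY5 and 303, 334 and 372 in WT. ABI5 (AT2G36270), a bZIP factor of abscisic acid responses that is also on the HY5 list, rose by 1.85 on the log2 scale (edgeR adjusted p = 0.0014). All 10 genes separated fusca from WT without overlap, beside 49.8% of all loci. This list and the list of GBF1 targets were drawn up with earlier results of these data known. Their shares are thus not read as traits of the targets. The 3 listed GBF1 targets RBCS1A, CAB1 and CAT2 (AT4G35090), a peroxisomal catalase, were all called lower, beside 18.4% of all loci. RBCS1A and CAB1 are the same genes as on the HY5 list. CAT2 was at 204, 264 and 167 CPM in fusca, with 807 in GFP-HY5, against 1137, 1169 and 1116 in WT (log2 fold change -2.43, edgeR adjusted p = 1.9e-05).

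The loci most like HY5 and HYH were found by the root mean square difference in log2 CPM over the 7 libraries, each locus centred on its WT mean, among 16579 other loci with a mean of at least 5 CPM. For HY5 these were AT5G35940 at 0.36, the transposable element AT1TE22850 at 0.46 and OSM34 (AT4G11650), an osmotin-like protein, at 0.54. OSM34 was at 303, 316 and 251 CPM in fusca, 54.5 in GFP-HY5 and 16.3, 19.9 and 20.9 in WT. For HYH they were AT4G21870 at 0.10, ATCAD4 (AT3G19450), a cinnamyl alcohol dehydrogenase, at 0.12, and SQE3 (AT4G37760), a squalene epoxidase, at 0.13. SQE3 was at 49.7, 48.3 and 40.2 CPM in fusca, 27.2 in GFP-HY5 and 49.7, 48.3 and 49.6 in WT. It was lowest in the GFP-HY5 library, which follows from its choice by likeness to HYH.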

How the data were processed

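RNA of the 9 RNA-seq samples was analysed, and the 20 ChIP-seq samples were not analysed here. The authors deposited raw read counts per locus, 1 column per sample per the file headers, in a table named as sense-strand counts. The submitters' processing notes name Trim Galore, STAR, deepTools, HTSeq and TAIR10. Versions, the annotation and the treatment of multiply mapped reads are not given in the sources used here. The 5 summary rows were left out. Reads on no feature made up 48.4% to 48.9% of each column. Identical columns were counted once, which left 7 libraries.

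The filterByExpr rule, applied to WT and fusca, left 21820 loci, which were scaled with TMM and tested with edgeR 4.0.16 in R 4.3.3, with Benjamini-Hochberg adjustment over all loci and a threshold of 0.05. The fit was also run on simulated counts. The GFP-HY5 library shared the fit, and its comparisons use log2 CPM after adding a prior count of 2 and have no test. Intervals at 95% come from the fit's standard errors. Members and lists were chosen with earlier results of these data known. All members are named. Of the relatives any gene may be named, and of the other lists up to 4 with the largest change past the threshold, beside the 3 loci most like HY5 and HYH. HEMB1, CHS, F3H, TT7, MYB12, ELIP1, ELIP2, IAA14, FHL, COBL9, SHR and GL1 were named outside this rule, after their values were seen. Names and gene spans came from the RefSeq table of TAIR10.1, a different release from that of the counts, so no coordinates are given. DESeq2 1.42.0 was an alternative.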

Additional observations from a re-analysis of the deposited data

How the results depend on the processing

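HY5 and GBF1 kept direction and call in all 15 alternatives, HY5 between 3.19 and 3.83 on the log2 scale. Values that follow are log2 differences of fusca from WT. With library size only, the median over loci moved to 0.50, 12774 loci passed (10189 higher, 2585 lower) against 7651 (3639 and 4012), and 66 against 36 listed loci; HYH was at 0.29, FHY1 at 0.90 and called, FHY3 at 0.45 and called, FAR1 at -0.060 and not called, FRS12 at 0.046 and bZIP68 at 0.34. With upper-quartile factors FHY1 was at 0.60 and called, FHY3 at 0.14, FAR1 at -0.36 and not called, and bZIP68 at 0.038. LAF1 turned to -0.0065 with RLE factors and -0.0097 with DESeq2. FHY3 turned to 0.029 with TMM factors computed without transposable-element and organelle loci, 0.028 with only WT and fusca libraries and 0.019 with the replicate block. The cause was not tested. Leaving out single libraries gave 5632 to 10895 calls (2509 to 5368 higher, 3080 to 5527 lower), the most without fusca replicate 2, 2 to 4 called members and 31 to 53 listed loci, and ranges of -0.31 to 0.015 for HYH, -0.14 to 0.20 for LAF1, 0.41 to 0.56 for FHY1, -0.071 to 0.079 for FHY3 and -0.58 to -0.44 for FAR1. The ratios moved within 3.43 to 3.67 for HY5 to HYH, 0.47 to 0.54 for FHY3 to FAR1 and -0.70 to -0.36 for FHY1 to FHL. Replicate numbers did not pair WT with fusca (r across loci -0.045, -0.11 and -0.20 for numbers 1, 2 and 3). With the replicate block 6774 loci and 2 members passed, with FAR1 at -0.48 not called. From 0 members, the number at least 2-fold apart between fusca and GFP-HY5 went to 1 with upper-quartile factors and 2 with library size only, and was 0 to 1 with single libraries left out. LAF1 and FHL, at 6 to 29 counts, are limited by depth.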
